A study of Homo sapiens with 6 samples.

Results

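The genes described here are 5 transcripts that low oxygen is known to induce, among them both membrane-anchored carbonic anhydrases that tumours are known to express: NDRG1, CA9, CA12, ANGPTL4 and NDUFA4L2. They were chosen by symbol and are 5 of the 753 genes in the deposited table. AsPC-1, an established human pancreatic cancer cell line, was infected with a control lentivirus in 3 libraries (control group, genotype label TMPRSS4 NC) and with an shTMPRSS4 lentivirus in 3 libraries (knockdown group, genotype label TMPRSS4-Knockdown). TMPRSS4 is a membrane serine protease, and the series title concerns proliferation, apoptosis and ERK1/2 signalling. Both groups therefore carry a lentivirus. The labels give no number of hairpins, no time after infection, no oxygen level and no statement on clones or pools.

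When oxygen is scarce, the HIF transcription factors escape degradation, bind short DNA elements with the core ACGTG or GCGTG and raise the transcription of many genes. CA9 and CA12 encode carbonic anhydrases whose active site faces the outside of the cell, where they interconvert carbon dioxide and bicarbonate and so take part in pH control. NDRG1 is a cytoplasmic protein induced by hypoxia, metal chelation and differentiation. NDUFA4L2 is a mitochondrial paralog of the respiratory chain subunit NDUFA4, and ANGPTL4 is a secreted inhibitor of lipoprotein lipase that PPAR receptors induce as well.

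All 5 genes were lower in the knockdown libraries, from 2.37-fold for CA12 to 14.6-fold for NDUFA4L2 by mean FPKM (fragments per kilobase of transcript, scaled to library depth). Each passed the edgeR quasi-likelihood test at a Benjamini-Hochberg adjusted p under 0.05, where 25.8% of the 705 listed genes tested were called lower and 99.1% were called in either direction. In the authors' deposited table every gene differs 2-fold or more between the group means and has an FDR no higher than 0.0490. The 753 genes are 4.98% of the 15117 that the authors adjusted over, and the 198 lower ones are 1.31%. The 3 control and the 3 knockdown FPKM values did not overlap for any of the 5 genes, which also held, in either direction, for 97.7% of the listed genes. The direction and the calls of the 5 genes were thus fixed by that selection and are given as a description. In bulk RNA, fewer cells that express a gene and less RNA per cell cannot be told apart.

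**Figure D1:**
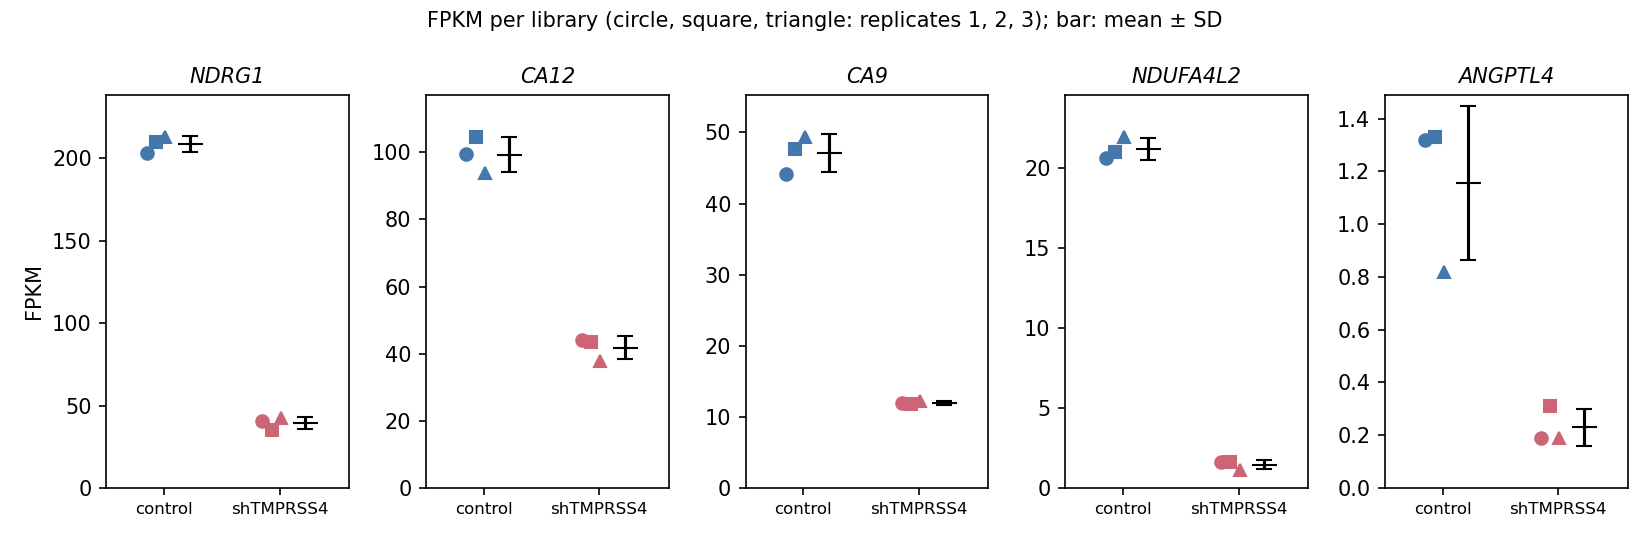
FPKM of NDRG1, CA12, CA9, NDUFA4L2 and ANGPTL4 in each library, with linear axes that start at 0; blue points are control and red points shTMPRSS4 libraries, circles, squares and triangles are replicates 1, 2 and 3, and the black bars are the mean ± SD of 3 libraries. In each panel every red point lies below every blue point, and the low ANGPTL4 control value of 0.82 FPKM is replicate 3.

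The depth recovered from the table was 30200000 to 57200000 reads in control and 46800000 to 53300000 reads in knockdown libraries. The level of TMPRSS4 itself was not analysed here. Whether it was reduced was therefore not checked, and knockdown means throughout the libraries that carry this label. Control replicate 3 alone carries the code L3 in its description and the other 5 libraries L4. The L3 code holds a control library only and so gives no contrast of its own. Of 10 epithelial markers only CEACAM6 was listed (11.5 to 13.3 FPKM in control and 3.71 to 3.94 FPKM in knockdown libraries), so the labelled cell type could not be checked. The 2 listed of 16 acinar and endocrine markers summed to 0.26 to 0.34 FPKM in control and 3.31 to 4.55 FPKM in knockdown libraries, with GCG at 0 in all controls. The 2 listed of 12 fibroblast and endothelial markers summed to 0.78 to 1.22 and 1.70 to 2.19 FPKM but went opposite ways: the fibroblast marker FAP was at 0.51 and 1.80 FPKM in the group means and the endothelial marker PECAM1 at 0.52 and 0.20 FPKM. No immune marker of 10 was listed. Their part in the falls described here was not tested.

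NDRG1 (ENSG00000104419, GRCh38 chromosome 8, 133237171 to 133302022, minus strand) was the most abundant of the 5 genes in the controls. Its FPKM was 203, 210 and 213 in control replicates 1, 2 and 3 and 40.9, 34.98 and 42.2 in the matching order of knockdown replicates. The lowest control value was 4.82 times the highest knockdown value. The knockdown mean of 39.3 ± 3.84 FPKM was 18.8% of the control mean of 209 ± 4.89 FPKM (SD, n = 3 per group). On the log2 scale this was a change of -2.41 ± 0.09 (SE, edgeR adjusted p = 6.12e-10). In the authors' deposited table NDRG1 ranked 2 of 753 by FDR and 25 of the 198 falls by size. None of its 31-base words occurs in another annotated gene, on either strand, so its reads share no such stretch with another transcript.

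CA9 (ENSG00000107159, GRCh38 chromosome 9, 35673856 to 35681159, plus strand) had the most even knockdown values. Control replicates 1, 2 and 3 had 44.1, 47.7 and 49.4 FPKM, and knockdown replicates had 11.9, 11.8 and 12.2 FPKM. The fall was therefore to 25.4% of the control mean, and the coefficient of variation (CV, SD over mean) of the knockdown libraries was 1.98%. This was a log2 change of -1.97 ± 0.05 (SE, edgeR adjusted p = 1.61e-09). Of the 31-base words of CA9, 32.7% also occur on the opposite strand of ARHGEF39, a gene that overlaps it and was not analysed here. No strand-marking step is described in the labels, so reads from these stretches cannot be assigned to CA9 alone.

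CA12 (ENSG00000074410, GRCh38 chromosome 15, 63321378 to 63382161, minus strand) fell least. It had 99.5, 104.5 and 94.0 FPKM in the controls and 44.0, 43.6 and 37.9 FPKM in the knockdown libraries. The knockdown libraries thus kept 42.1% of the control mean, and CA12 rests on the most reads of the 5 genes, 48485 counts over the controls and 24666 over the knockdown libraries. CA12 changed by -1.25 ± 0.08 on the log2 scale (SE, edgeR adjusted p = 7.51e-08). By the size of its fall it ranked 123 of 198 in the authors' deposited table, and by its control level 9 of 198. Among 15 carbonic anhydrase genes, CA9 and CA12 were the 2 listed, and both fell. Both were chosen with earlier results of these data known, so nothing is read from this count.

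NDUFA4L2 (ENSG00000185633, GRCh38 chromosome 12, 57234903 to 57240715, minus strand) fell most. The controls had 20.6, 21.0 and 21.9 FPKM, within a CV of 3.15% that is no larger than the 3.35% counting gives. The knockdown libraries had 1.63, 1.6 and 1.11 FPKM, from 94, 87 and 56 counts. Replicate 3 was lowest among them, and all 3 were far under the controls. NDUFA4L2 changed by -3.89 ± 0.18 on the log2 scale (SE, edgeR adjusted p = 2.62e-09). Counting error alone gives a knockdown level of 6.91% of control with an exact 95% interval of 6.03% to 7.89%, while the libraries ranged from 5.24% to 7.69%. In a list of 47 genes, made of NDUFA4L2 and genes of respiratory complexes I and IV, only NDUFA4L2 was listed. NDUFA4 was not analysed here.

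ANGPTL4 (ENSG00000167772, GRCh38 chromosome 19, 8363289 to 8374373, plus strand) was by far the least abundant. It had 1.32, 1.33 and 0.82 FPKM in the controls, from 76, 50 and 25 counts. In the knockdown libraries it had 0.19, 0.31 and 0.19 FPKM, from 10, 16 and 9 counts. The groups did not overlap, but the low control was replicate 3, the shallowest library. ANGPTL4 changed by -2.28 ± 0.33 on the log2 scale (SE, edgeR adjusted p = 0.00015). Summed over libraries, 151 control and 35 knockdown counts give 19.2% of the control level, with an exact 95% interval for counting error of 12.9% to 27.9%. Without control replicate 3, the single L3 library, the log2 fold changes of NDRG1, CA9, CA12, ANGPTL4 and NDUFA4L2 were -2.40, -1.94, -1.29, -2.51 and -3.86. All 5 passed the edgeR test, where 523 listed genes were called higher and 182 lower.

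RefSeq promoter windows (GRCh38.p14) matched 3 of the 5 genes, CA9, CA12 and ANGPTL4, and are shown because the HIF core motif is a known feature of hypoxia-inducible promoters. The 250 bases before each RefSeq start are given 5′ to 3′ on the gene's strand, with ACGTG or GCGTG, in either orientation (CACGT or CACGC), in capitals.
CA9, chr9:35673678-35673927, plus strand: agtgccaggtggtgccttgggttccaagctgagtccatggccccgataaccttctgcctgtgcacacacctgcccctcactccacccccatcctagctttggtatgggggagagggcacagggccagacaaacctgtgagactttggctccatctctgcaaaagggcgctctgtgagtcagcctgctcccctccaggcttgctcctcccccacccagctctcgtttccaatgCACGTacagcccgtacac
CA12, chr15:63381847-63382096, minus strand: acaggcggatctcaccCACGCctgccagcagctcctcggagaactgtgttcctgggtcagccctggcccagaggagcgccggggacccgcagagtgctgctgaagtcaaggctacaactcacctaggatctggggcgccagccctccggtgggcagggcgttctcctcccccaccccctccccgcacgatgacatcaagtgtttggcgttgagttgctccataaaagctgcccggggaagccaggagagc
ANGPTL4, chr19:8363905-8364154, plus strand: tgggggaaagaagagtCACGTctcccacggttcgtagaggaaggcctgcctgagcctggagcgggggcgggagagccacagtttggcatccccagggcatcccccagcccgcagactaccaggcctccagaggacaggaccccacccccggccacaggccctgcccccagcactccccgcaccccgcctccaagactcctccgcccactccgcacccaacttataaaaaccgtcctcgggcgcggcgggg

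In CA9 the match, ACGTG on the opposite strand, lies 14 to 18 bases before the RefSeq start. The matches of CA12 (GCGTG) and ANGPTL4 (ACGTG) lie 230 to 234 bases before it, both on the opposite strand, and CA12 has another GCGTG match from base 40 to 44 after the start, outside the printed stretch. Over all 35116 RefSeq windows of 300 bases, 21.4% hold ACGTG and 36.5% hold GCGTG on either strand. Of the 203 windows of listed genes lower in the knockdown libraries, 21.2% and 36.0% do, shares close to those of all windows. At least one of these cores is held by 48.4% of all windows and by 48.3% of the 203. A match of this length is frequent, describes letters only, and says nothing of binding. GENCODE release 29 starts CA9, CA12 and ANGPTL4 further upstream than RefSeq, by 72, 315 and 866 bases.

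By control level, 4 of the 5 genes lay above the median of the listed genes that were lower, and ANGPTL4 lay below it (rank 131 of 198 in the authors' deposited table). The summed FPKM of the 5 was 369, 385 and 379 in the controls and 98.5, 92.3 and 93.6 in the knockdown libraries. They made up 8.31% to 8.72% of the summed FPKM of the 198 lower genes in the controls and 5.15% to 5.39% in the knockdown libraries. Control means of at least 20 FPKM were held by 4 of the 5, against 36 of all 198 lower genes, whose median was 2.97 FPKM. The median log2 fold change of the 5 genes was -2.28, beside -1.34 over the 187 lower genes tested and 1.29 over all 705. All 705 are selected rows, 518 of them higher, so their median follows that split. The 5 genes were chosen with earlier results of these data known, so these comparisons of level and fall are a description only. Values did not overlap between groups, with the knockdown lower, in 25.0% of the 753 listed genes and in 94.9% of the 198 listed as lower, so the lack of overlap does not set the 5 apart.

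**Figure D2:**
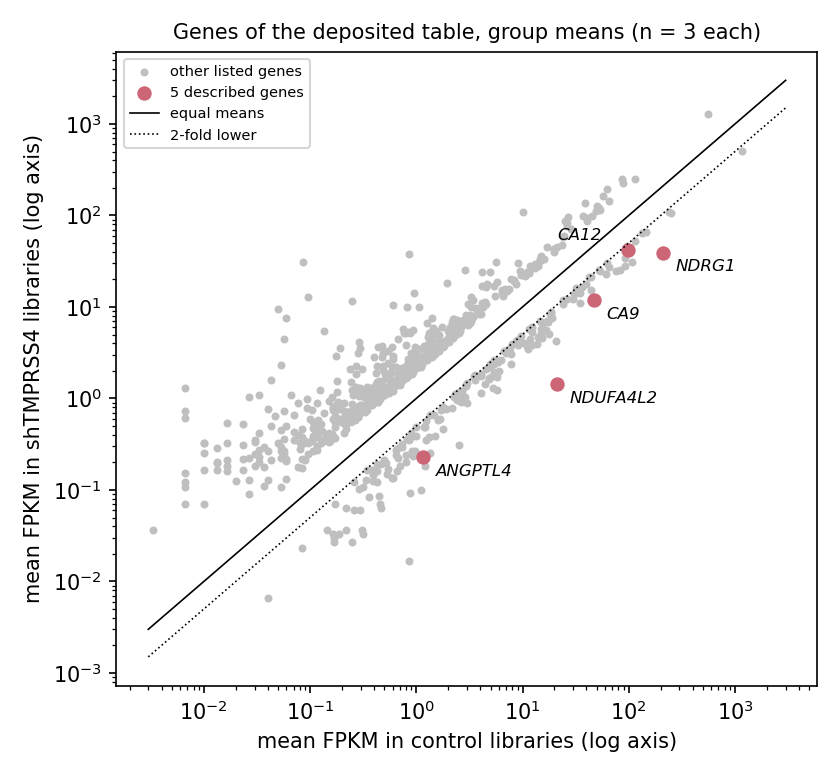
Mean FPKM in knockdown against control libraries for the listed genes with a mean above 0 in both groups, both axes logarithmic; grey points are other listed genes, red points the 5 described genes, the solid line marks equal means and the dotted line a 2-fold fall. Among the 5 described genes, CA12 lies nearest the dotted line (99.3 against 41.8 FPKM) and NDUFA4L2 farthest below it (21.2 against 1.45 FPKM).

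The order of levels changed between the groups. In the controls it ran NDRG1, CA12, CA9, NDUFA4L2, ANGPTL4 by FPKM, and no neighbours overlapped. NDRG1 was 2.05, 2.01 and 2.27 times CA12 in the 3 controls. After knockdown CA12 was 1.08, 1.25 and 0.899 times NDRG1, so CA12 and NDRG1 no longer differed beyond their spread, with means of 41.8 and 39.3 FPKM. CA9, NDUFA4L2 and ANGPTL4 followed in the same order as before, without overlap.

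FPKM levels of different genes depend on the transcript length used. The lengths implied by the ratio of count to FPKM were 1.19 kb for NDRG1, 3.90 kb for CA12, 1.496 kb for CA9, 1.08 kb for NDUFA4L2 and 1.01 kb for ANGPTL4. Over 159 listed genes with enough counts, 143 (89.9%) of the implied lengths were within 1% of the mean length of the gene's annotated protein-coding transcripts in GENCODE release 29. NDRG1 has 15 such transcripts, from 0.53 to 3.76 kb. Scaled instead to the longest protein-coding transcript of each gene, a choice made after seeing the data, NDRG1 had 66.4 FPKM in control and 12.5 in knockdown libraries, and CA12 had 60.5 and 25.5. On that scale NDRG1 was 1.10-fold above CA12 in the controls, and CA12 was 2.04-fold above NDRG1 in the knockdown libraries. NDRG1 was then only 1.13-fold above CA9 in the knockdown libraries, where the deposited FPKM gave 3.28-fold. The near equality of NDRG1 and CA12 thus falls in the knockdown libraries on one scale and in the controls on the other, while fold changes within a gene do not depend on length.

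Ratios between genes within a library are free of depth scaling. The rows were selected on the change of each gene and not on ratios. The change of a log2 ratio is, however, the difference between the log2 changes of its genes, so it is not independent of that selection. The ratios describe by how much the falls of these genes differed. All 10 pairs were compared by a two-sided exact permutation test over 3 against 3 libraries, whose smallest possible p is 0.10. In 8 pairs the control and knockdown ratios did not overlap (exact permutation p = 0.10, Benjamini-Hochberg adjusted p = 0.125 over the 10 pairs), which does not pass 0.05 and could not. The pairs share the same 5 genes, so they are not separate results. The share without overlap among pairs of other listed genes was not computed, so the count of 8 does not set these genes apart. The log2 ratio of CA12 to NDUFA4L2 moved most, by 2.64 ± 0.13 (SE), from ratios of 4.82, 4.98 and 4.28 in the controls to 27.0, 27.3 and 34.2 in the knockdown libraries. The change in this ratio was many times its SE.

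NDUFA4L2 also fell more than each of the other genes. The log2 ratio of NDRG1 to NDUFA4L2 moved by 1.48 ± 0.24 (SE), that of CA9 to NDUFA4L2 by 1.92 ± 0.20 and that of ANGPTL4 to NDUFA4L2 by 1.56 ± 0.34. CA12 fell less than each of the others. The log2 ratio of NDRG1 to CA12 moved by -1.16 ± 0.15 and that of CA12 to ANGPTL4 by 1.09 ± 0.29.

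The carbonic anhydrases themselves fell by different amounts. The ratio of CA9 to CA12 was 0.444, 0.456 and 0.525 in the controls and 0.270, 0.270 and 0.322 in the knockdown libraries. Every knockdown ratio lay below every control ratio, a log2 change of -0.73 ± 0.11 (SE). NDRG1 and CA9 were closest among the abundant genes, with a log2 change of their ratio of -0.44 ± 0.08. For ANGPTL4 the ratios overlapped with those of control libraries when set against NDRG1 (log2 change -0.08 ± 0.40, exact permutation p = 0.90) and against CA9 (0.36 ± 0.36, exact permutation p = 0.20), and at its counts a difference of that size was not detectable.

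**Figure D3:**
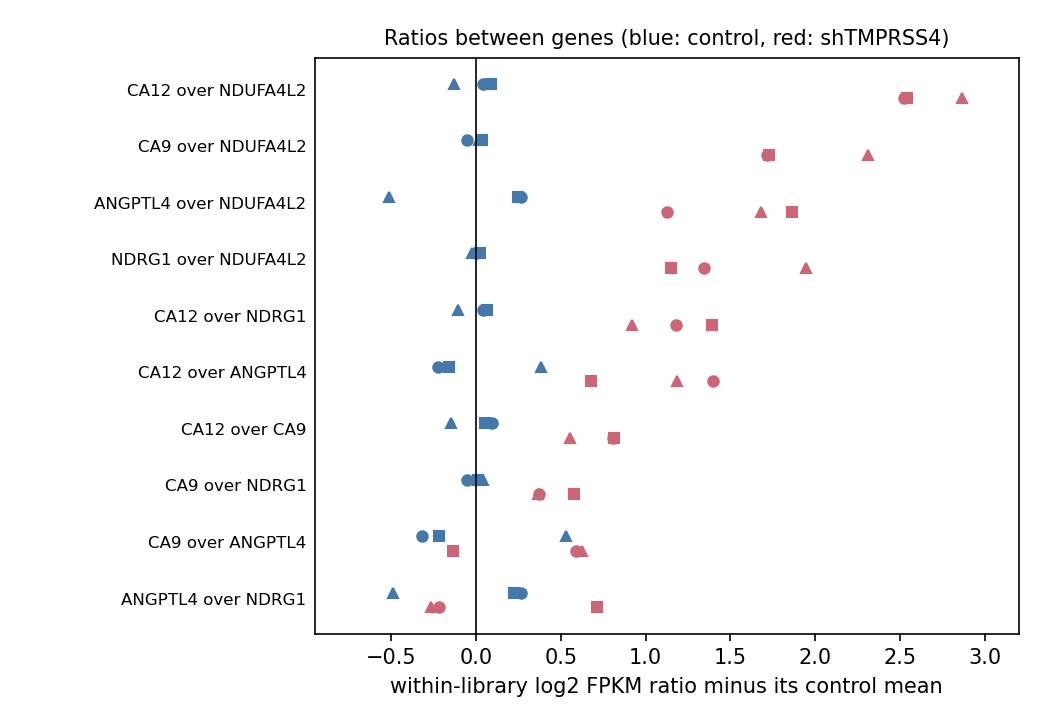
Log2 ratio of FPKM between 2 genes within each library, minus the mean of the 3 control libraries, for all 10 pairs, with each pair written so that its mean rises; blue points are control, red points shTMPRSS4 libraries, and circles, squares and triangles are replicates 1, 2 and 3. Red and blue points are apart in 8 rows and mix in the lowest 2, the pairs of ANGPTL4 with CA9 and with NDRG1.

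The libraries of a group did not deviate in the same way for all 5 genes. Knockdown replicate 3 was the lowest for CA12, at 90.6% of its group mean, and for NDUFA4L2, at 76.7%, but the highest for NDRG1 and CA9. Knockdown replicate 2 was the lowest for NDRG1, at 88.9%, and the highest for ANGPTL4, at 134.8%. Among the controls, replicate 3 was the highest for NDRG1, CA9 and NDUFA4L2 and the lowest for CA12 and ANGPTL4. The CV of NDRG1 was 2.34% in control and 9.75% in knockdown libraries, where counting gives 1.02% and 2.07%. The CV of CA12 was 5.33% and 8.14%, against 0.819% and 1.11% from counting. CA9 in the knockdown libraries (1.98% against 3.34%) and ANGPTL4 there (30.1% against 30.2%) varied no more than counting gives. NDUFA4L2 in the knockdown libraries (20.2% against 11.5%) and ANGPTL4 in the controls (25.2% against 15.6%) varied more.

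**Figure D4:**
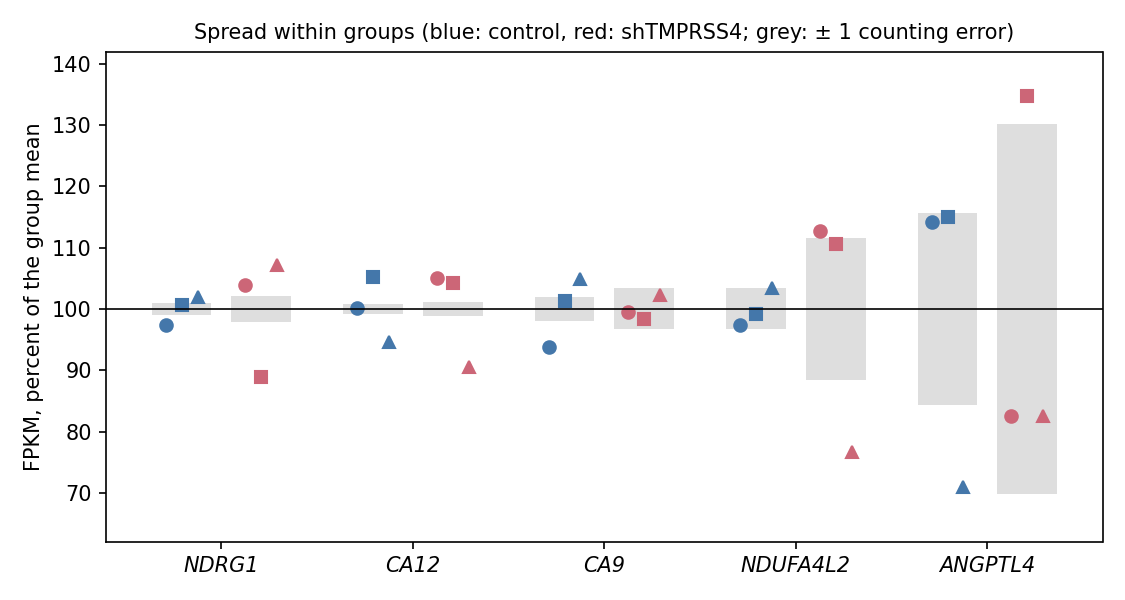
FPKM of each library as a percent of its own group mean, for each gene; blue points are control, red points shTMPRSS4 libraries, circles, squares and triangles are replicates 1, 2 and 3, and the grey bars span 1 counting error on either side of 100%. NDRG1 and CA12 spread beyond the grey bars in both groups, and CA9 does so in the controls. NDUFA4L2 knockdown replicate 3 (76.7%) and ANGPTL4 control replicate 3 (70.9%) lie below theirs. NDUFA4L2 control replicate 3 (103.49%) and knockdown replicate 1 (112.7%) and ANGPTL4 knockdown replicate 2 (134.8%) lie above theirs. The wide bars of ANGPTL4 show how few reads it has.

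Few other genes of the hypoxia lists were in the table. It holds 4.98% of the 15117 genes the authors adjusted over, and its 198 lower genes are 1.31% of the 15117. Of a list of 46 hypoxia-induced genes outside glycolysis, which contains the 5, 6 were listed, all 6 of them lower. All 6 passed the edgeR test, as did 99.1% of the listed genes tested. The list's count rests on the 5 chosen genes, and nothing is read from it. The other gene was PPFIA4, a liprin scaffold protein, which fell from 1.25, 1.16 and 1.26 FPKM to 0.34, 0.30 and 0.41 FPKM. The log2 change of PPFIA4 was -1.82 ± 0.14 (SE, edgeR adjusted p = 5.42e-06). No gene was listed of 11 in the HIF system (HIF subunits, prolyl hydroxylases and VHL), of 21 in glycolysis and lactate export, or of 28 in bicarbonate, proton and lactate transport. Genes outside the table were not analysed here, so nothing is known of them beyond their not being in the selection.

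In the list of 13 angiopoietin-like and lipoprotein lipase genes and that of 14 PPAR genes, ANGPTL4 was the 1 listed member. In the NDRG and MYC family list, NDRG1 fell and MYCL, a MYC family transcription factor, rose from 4.01, 3.88 and 4.54 FPKM to 23.9, 24.1 and 23.7 FPKM. The log2 change of MYCL was 2.53 ± 0.07 (SE, edgeR adjusted p = 1.41e-09), and it was higher under every scaling tried.

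The annotation deposited with the table gave a wider view of hypoxia. A term naming hypoxia was held by 16 listed genes, of which 6 were lower and 10 higher (37.5% lower, beside 26.3% of all 753). NDRG1, CA9 and ANGPTL4 hold such a term, while CA12 and NDUFA4L2 do not. These 3 holders are part of the 6 lower genes and were chosen with earlier results known, so nothing is read from the share. The other lower genes were the urokinase gene PLAU, the kinase gene PTK2B (17.1 ± 0.974 to 7.04 ± 0.313 FPKM, SD, n = 3 per group) and the angiopoietin gene ANGPT4. In the edgeR test 15 of the 16 were tested, and 6 were called lower and 9 higher. The genes that rose included the calcium channel genes RYR2 (log2 fold change 1.55 ± 0.06) and ITPR2 (1.72 ± 0.10), and BMP7, a growth factor (1.78 ± 0.22). The dopamine receptor gene DRD2 was at 0 in the controls and was too low to be tested. With scaling by TMM or by DESeq2 size factors over the listed genes, ALDH3A1, ANG and MMP10 turned to the lower side, and the split became 9 lower and 7 higher. The genes called were then 6 lower and 4 higher with TMM, and 6 lower and 3 higher with DESeq2 size factors. The hypoxia-annotated genes as a group thus moved in both directions under each scaling.

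**Figure D5:**
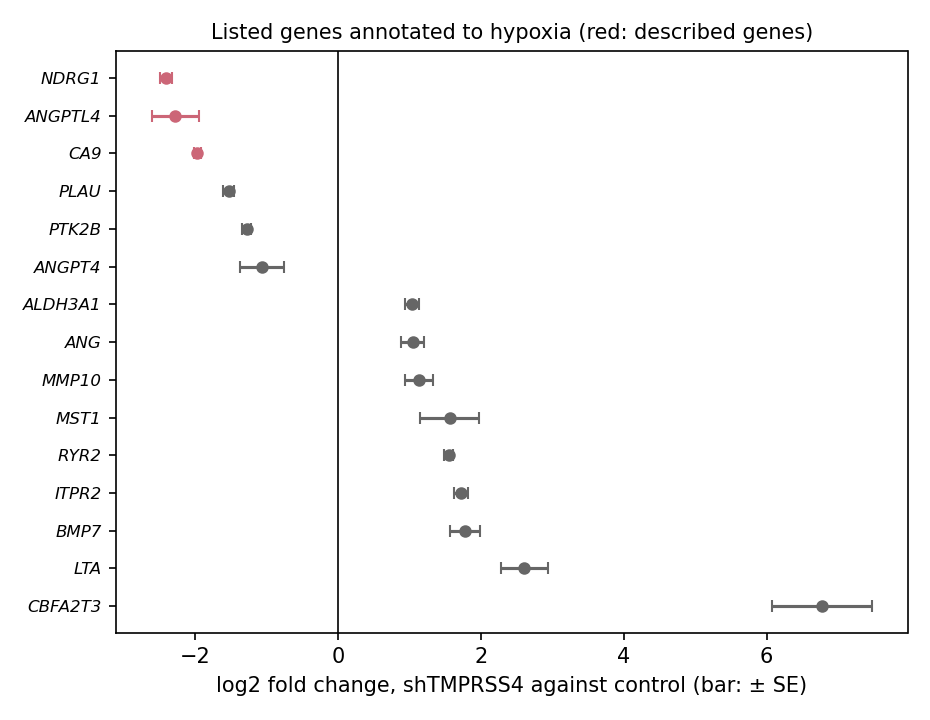
Log2 fold change (bar, ± SE, 3 against 3 libraries) of the 15 tested listed genes whose deposited annotation names hypoxia; red points are the described genes and grey points the others. NDRG1, ANGPTL4 and CA9 have the 3 lowest values, and 9 genes lie to the right of 0, of which ALDH3A1, ANG and MMP10 turn with TMM or DESeq2 scaling over the listed genes.

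Other annotation shared by the 5 genes was limited. CA9 and CA12 were the only listed genes with the terms carbonate dehydratase activity, bicarbonate transport and nitrogen metabolism. The broad term membrane was held by NDRG1, CA9, CA12 and NDUFA4L2 and by 343 listed genes in all, of which 101 were lower. ANGPTL4, a secreted protein, shared with another of the 5 the terms response to hypoxia (with CA9) and protein binding (with NDRG1 and CA9).

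For each gene, the 2 listed genes most like it were found by the root mean square (RMS) difference of their log2 depth-scaled counts, centred on the control mean, over the 6 libraries and 455 candidates. NDRG1 was nearest to the ubiquitin ligase gene TRIM31 (RMS difference 0.14) and complement C3 (0.15). CA9 was nearest to the metalloprotease gene ADAM19 (0.12) and the annexin gene ANXA10 (0.13). CA12 had the closest match, PRPSAP2 (0.04), whose product is associated with phosphoribosyl pyrophosphate synthetase. PRPSAP2 had 29.8, 30.4 and 28.97 FPKM in the controls and 12.7, 12.7 and 11.1 in the knockdown libraries, with replicate 3 lowest in both groups, as for CA12. PTK2B followed (0.09).

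ANGPTL4 was nearest to the transglutaminase gene TGM2 (0.25) and the synuclein gene SNCG (0.27), and NDUFA4L2 to VSIG1 (0.62) and the chloride channel gene CLCN1 (0.92). No candidate lay close to NDUFA4L2. Listed genes whose FPKM stayed under 1 in both group means were not candidates. This left out genes with large falls, such as CP (log2 change -3.21, control mean 0.88 FPKM) and KCNN1 (-4.61, 0.17 FPKM). Whether a listed gene outside the candidates lay closer to NDUFA4L2 was not tested. By the RMS difference none of the 10 neighbours was itself one of the 5 genes. Ranked by Pearson's r instead, which ignores the size of the fall, 1 of the 10 neighbours was the same, PRPSAP2 for CA12, and NDUFA4L2 was then the second neighbour of CA12.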

How the data were processed

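RNA of 6 AsPC-1 libraries was poly(A)-enriched and sequenced on an Illumina instrument, per the labels' protocols. Bowtie 0.12.2 and mouse genome builds are named, per the submitters' processing notes, although the identifiers in the table are those of human Ensembl genes. How reads were counted, over which gene models, and how groups were tested is not given in the sources used here. Per the file headers, the deposited table gives a read count and an FPKM value for each gene and library, and the authors' mean FPKM, log2 fold change, p-value and FDR. Its rows were selected on that fold change and FDR.

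Relative depth was recovered as the median ratio of count to FPKM over 159 genes with at least 200 counts in every library. Absolute depth used 22 genes with 1 annotated transcript. The edgeR 4.0.16 quasi-likelihood test (R 4.3.3, robust, filter on low counts) was fitted to the deposited counts of all 753 genes with this depth, since TMM on a selected table centres the selected genes themselves. P-values were adjusted by Benjamini-Hochberg over 705 tested genes (threshold 0.05). Log2 fold changes use depth-scaled counts plus 0.5, with an SE from 3 against 3 libraries. The labels do not say that replicates were separate cultures, so p-values measure only the spread between these samples. Intervals cover counting error only.

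The genes and lists were chosen with earlier results of these data known. Named were the 5 genes, every listed gene of the pathway lists and the 2 nearest genes of each. Genes with a hypoxia term were added after the values were seen. Alternatives were TMM, upper-quartile and DESeq2 1.42.0 scaling, no filter, limma 3.58.1 on log2 FPKM, a replicate block and leaving out each library.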

Additional observations from a re-analysis of the deposited data

How the results depend on the processing

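All 5 genes stayed lower and past the threshold under each of the 14 alternatives, with adjusted p of at most 0.00146, the highest being for ANGPTL4. The rows were selected on this same contrast, and in the main edgeR fit 99.1% of the 705 listed genes tested passed. Passing therefore does not set the 5 genes apart. Scaling over the listed genes alone moved the median log2 fold change of the 5 genes from -2.28 to -3.43 (TMM), -3.41 (DESeq2 size factors) and -2.98 (upper quartile), and that of the listed genes tested from 1.29 to 0.10, 0.17 and 0.57. The genes called higher and lower, 517 and 182, became 167 and 192 with TMM, 197 and 197 with DESeq2 size factors and 369 and 189 with the upper quartile. With limma the median of the 5 was -1.97 on log2(FPKM + 0.1) and -1.89 on log2(FPKM + 1), since the pseudocount shrinks low genes: ANGPTL4 had -0.80 on the latter. Leaving out 1 library gave medians from -2.40 to -2.15.

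Of the 10 ratios between genes, 8 kept their direction with counts plus 0.5, with FPKM + 0.1 and without any 1 library. A replicate block leaves the mean change of a ratio as it was, so it could not turn a direction. The other alternatives were not run on ratios. The log2 ratio of NDRG1 to ANGPTL4, -0.08, ranged from -0.25 to 0.24 without 1 library and turned without control replicate 3 (0.17) or shTMPRSS4 replicate 2 (0.24). That of CA9 to ANGPTL4, 0.36, became -0.046 with FPKM + 0.1, and ranged from 0.20 to 0.63 without 1 library. Same-numbered libraries' deviations had correlations of 0.03, 0.05 and -0.05 over 517 genes, and no pattern of best matches by number held for every library. These values showed no pairing by replicate number, but weak correlations cannot exclude one. With the replicate number as a block, 507 genes were called higher and 175 lower, and all 5 genes passed.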
